A study of Mus musculus with 4 samples.

Results

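MicroRNA genes encode hairpin RNAs of which short mature strands guide Argonaute proteins to target messenger RNAs. The hairpins are cut out of long primary transcripts by Drosha and Dgcr8 in the nucleus, and Dicer1 then releases the mature strand, whose bases 2 to 8, the seed, pair with the target. Many hairpins lie in introns or exons of other genes, the host genes, and many stand in clusters that are read as a single transcript. Embryonic stem cells (ESCs) are known for the Mir290 to Mir295, Mir302 to Mir367 and Mir17 to Mir92-1 clusters, which promote the cell cycle, and for low levels of let-7, which Lin28a keeps from maturing.

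Of the 1180 microRNA loci listed for F123-ESCs, 310 are described here. They were chosen by their measured level: the mean of the S129 allele and the mean of the CAST allele together came to at least 1 RPKM (reads per kilobase of gene, scaled to the depth of the library). Of the 310, 302 are annotated as hairpin genes, and the other 8 are host transcripts such as Mir17hg or genes classed with the small nucleolar RNAs. A further 170 loci were above 0 but under this limit, and 700 loci were at 0 in all 8 columns. The members just inside the limit were Mir6398 with 1.02 RPKM, Mir140 with 1.05 RPKM and Mir138-1 with 1.10 RPKM, and the loci just outside were Mir192 with 0.988 RPKM, Mir6917 with 0.967 RPKM and Mir1943 with 0.962 RPKM, each as the sum of both alleles. As the level chose the members, levels are given as a description, with no test. The difference between the alleles was not used in the choice.

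F123-ESCs are a male mouse line from a cross of S129/Jae and Cast mice, in which the S129 copy of each autosome is maternal and the CAST copy is paternal. All 4 libraries, replicates 1 to 4, were of untreated cells of this genotype, kept with 1000 U/ml LIF, moved off the feeder fibroblasts for at least 2 passages and harvested after about 48 h. PolyA RNA was sequenced by a stranded kit with fragments of about 260 bp and paired reads of 150 bp, and reads were divided between the alleles by the SNPs they cover. It is a single line, the only condition is untreated, and the labels do not say whether the replicates are separate cultures, so the spread between libraries may be technical.

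Mature strands are far shorter than these fragments and carry no polyA tail. The values are therefore of longer RNA that covers a hairpin, such as primary transcripts, host transcripts and introns, and not of the mature microRNAs. Only reads that cover a SNP between S129 and CAST were counted, and the positions of the SNPs were not used here. A locus at 0 had no such read, which does not show that it was silent. The 302 loci annotated as hairpin genes are 39 to 139 bp long, and on a gene of 80 bp a single read stands for 0.434 to 0.748 RPKM.

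The sum of reads assigned to an allele was 34120416 to 56627972 per library, with the fewest in replicate 4. Markers of ESCs were present, with 9 of 9 between 29.5 RPKM (Pou5f1) and 7111 RPKM (Dppa5a). Of 8 markers of feeder fibroblasts none was at 0, and their summed level was 180 to 227 RPKM, of which Col1a2 held most with 166 RPKM as mean of the libraries. Of 5 markers of primitive endoderm, none was at 0 and 3 were under 1 RPKM. In bulk RNA, fewer cells of a type and less RNA per cell cannot be told apart, and the part of other cell types in the values of the microRNA loci was not tested.

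The mature sequences of the loci on which the results turn are shown here, taken from RefSeq (GRCm38.p6), with the seed in capitals. Mature sequences were found for 255 of the 310 loci. The first are of the 6 hairpins with the highest level outside the Sfmbt2 cluster, Mir682, Mir296, Mir6516, Mir18b, Mir21a and Mir200a.
mmu-miR-682: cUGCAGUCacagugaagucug
mmu-miR-296-5p: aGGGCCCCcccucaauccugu
mmu-miR-296-3p: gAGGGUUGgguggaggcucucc
mmu-miR-6516-5p: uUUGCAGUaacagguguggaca
mmu-miR-18b-5p: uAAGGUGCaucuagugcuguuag
mmu-miR-21a-5p: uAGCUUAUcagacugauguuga
mmu-miR-200a-3p: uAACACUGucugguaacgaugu

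Some members of the clusters known from ESCs share the letters AAGUGC at the 5′ end. These letters stood within bases 1 to 8 of a mature sequence at 8 of the 255 loci, or 3.14%, and at 18 of 1008 listed loci with a mature sequence, or 1.79%. Mir17, Mir20a, Mir20b and Mir93 have the same whole seed although they lie in 3 different clusters, and the other loci have the letters shifted by a base or more. They are shown so that loci of 1 seed can be compared in what follows.
mmu-miR-17-5p: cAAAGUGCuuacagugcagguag
mmu-miR-20a-5p: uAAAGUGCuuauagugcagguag
mmu-miR-20b-5p: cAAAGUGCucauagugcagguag
mmu-miR-93-5p: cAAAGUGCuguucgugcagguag
mmu-miR-290a-3p: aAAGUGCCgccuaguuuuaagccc
mmu-miR-302b-3p: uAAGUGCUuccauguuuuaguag
mmu-miR-302c-3p: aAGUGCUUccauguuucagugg
mmu-miR-350-5p: aAAGUGCAugcgcuuuggg

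In all, 28 seeds were shared by 2 or more members, which together are 51 loci. Mir19a and Mir19b-2 share a seed across clusters on chromosome 14 and on X, Mir25, Mir92b and Mir32 share another, and Mirlet7d and Mirlet7e have the let-7 seed. Mir5106 and Mir6897, 2 of the loci with the largest difference in favour of CAST, also have a seed in common.
mmu-miR-19a-3p: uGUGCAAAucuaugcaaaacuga
mmu-miR-19b-3p: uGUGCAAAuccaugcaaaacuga
mmu-miR-25-3p: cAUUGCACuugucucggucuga
mmu-miR-92b-3p: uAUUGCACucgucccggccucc
mmu-miR-32-5p: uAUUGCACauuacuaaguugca
mmu-let-7d-5p: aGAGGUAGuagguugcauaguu
mmu-let-7e-5p: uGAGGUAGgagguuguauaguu
mmu-miR-5106: aGGUCUGUagcucaguuggcaga
mmu-miR-6897-3p: cGGUCUGUguucuucccccag

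The levels of the 310 loci, as the mean of both alleles, had a median of 2.94 RPKM. The median over loci was 3.25, 2.96, 2.97 and 2.90 RPKM in replicates 1 to 4, and 25 of the loci were at 0 in replicate 4, where the other libraries had 5 or 6. Of the loci, 52 were under 1 RPKM, 192 were from 1 to 10 RPKM, and 66 had at least 10 RPKM. In reads, the quartiles were 20, 44 and 129.5 over all 8 columns, the fewest were 6, and 18 loci had at least 1000 reads. Most of the loci thus rest on few reads. Levels of different loci also depend on the SNPs that each holds.

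Mir682 stood above all other loci. Its level was 13600.1, 12749.5, 11953 and 17626.5 RPKM in replicates 1 to 4, and its 253216 reads were 73.1% of all reads on the 310 loci. The hairpin (ENSMUSG00000076236; chr13:75645046-75645141 in mm10, plus strand) lies in an exon of Gm4149, which is not in the table. On the S129 allele it had 27199.9, 25497, 23907 and 35252 RPKM, and on the CAST allele 0.374, 2.12, 0 and 1.25 RPKM. Nearly every read was thus assigned to S129 in each library, with 8 reads on CAST in all. The log2 difference S129 minus CAST was 15.46 on the log2(RPKM+0.1) scale (standard error 0.77, adjusted p = 0.000167 from limma, S129 higher in 4 of 4 libraries). With CAST at or near 0, its size depends on the 0.1 added.

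Mir296, which has been described as a regulator of Nanog, followed with 1182, 787, 885 and 875 RPKM. It lies at chr2:174267047-174267125 on the minus strand (ENSMUSG00000065521), 14112 bp from Nespas, the nearest gene of the same strand and an antisense RNA of the imprinted Gnas domain. The S129 allele had 782, 539, 590 and 612 RPKM and the CAST allele 1583, 1035, 1179 and 1138 RPKM, and the lowest CAST value was above the highest S129 value. S129 held 34.8% ± 0.96 of the reads (SD, n = 4 libraries), with a log2 difference of -0.96 (standard error 0.037, adjusted p = 7.54e-05 from limma, CAST higher in 4 of 4 libraries). Mir298, the neighbouring hairpin, had 3.16 RPKM with 25 reads on S129 and 26 on CAST.

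Mir6516 had 494, 294, 347 and 282 RPKM. It lies in an exon of Snhg20, a noncoding host of small nucleolar RNAs, at chr11:117077348-117077457 (ENSMUSG00000104740), and overlaps Gm26083, a gene of the small nucleolar RNA class, so that reads of these genes cannot be told apart. Snhg20 itself had 114 RPKM. S129 held 58.0% ± 0.80 of the reads of Mir6516 (SD, n = 4), and the difference was 0.41 (standard error 0.033, adjusted p = 0.000690 from limma, S129 higher in 4 of 4 libraries). Values of the alleles overlapped between libraries, from 322 to 554 RPKM on S129 and from 243 to 434 RPKM on CAST, and the call was lost when the alleles were not paired by library (adjusted p = 0.166 from limma).

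Mir21a, a microRNA found at high level in fibroblasts and many tumours, had 185, 125, 125 and 155 RPKM. The hairpin (ENSMUSG00000065455; chr11:86584067-86584158, minus strand) lies in an exon of Vmp1, an autophagy gene. The S129 allele had 315, 194, 200 and 255 RPKM, and the CAST allele had 54.2, 55.6, 50.1 and 54.0 RPKM. The CAST values were close to each other while those of S129 ranged more widely, and the alleles did not overlap. S129 held 82.0% ± 3.2 of the reads (SD, n = 4; difference 2.14, standard error 0.13, adjusted p = 0.000331 from limma, S129 higher in 4 of 4 libraries). In Vmp1, S129 held 52.9% of 19030 reads, with a difference of 0.12 (adjusted p = 0.0326 from limma). Of 7 feeder fibroblast markers tested, 5 were higher on S129 and 2 on CAST, where 62.7% of all genes tested were called on either allele, from 41.8% (Postn) to 79.9% (Thy1) of their reads on S129, and their part in the values of Mir21a was not tested.

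**Figure D1:**
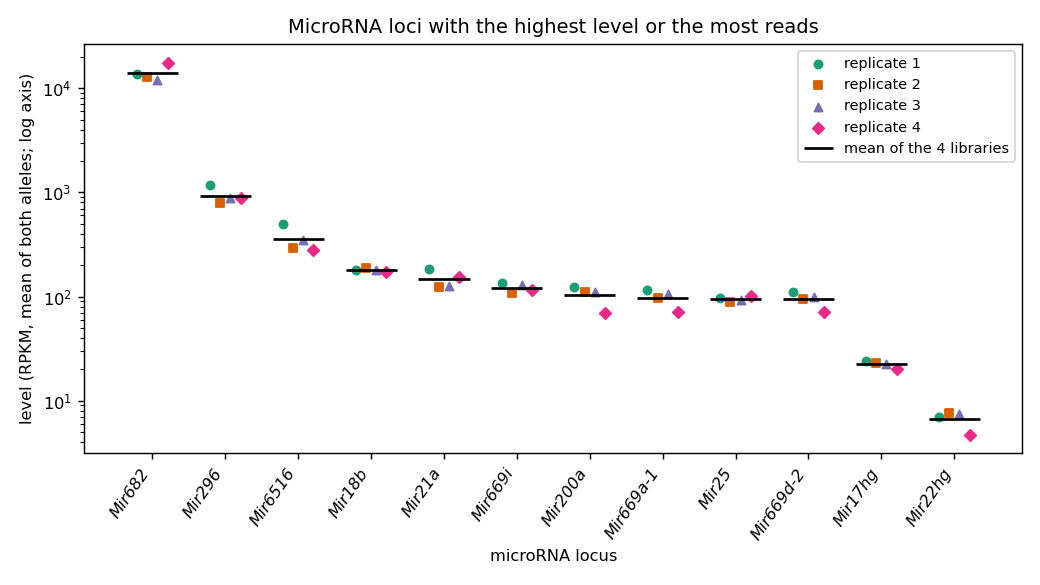
The level of each locus in RPKM, as the mean of both alleles, is plotted on a log axis for the loci with the highest level or the most reads; points are the 4 libraries and bars their mean. Mir682 stood at 11953 RPKM or more, Mir296 at 787 RPKM or more and all others at or under 494 RPKM, and Mir200a, Mir669a-1 and Mir669d-2 were lowest in replicate 4.

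Most of the other loci among the 10 highest were in clusters. Mir18b, on chromosome X, had 180, 187, 178 and 173 RPKM. Mir669i, Mir669a-1 and Mir669d-2 of the Sfmbt2 cluster had means of 122, 97.5 and 94.0 RPKM, Mir200a had 103.7 RPKM and Mir25 had 94.7 RPKM. Among the loci with the most reads were also 2 host transcripts of microRNAs, which are long genes and stand apart from the hairpins. Mir17hg, the transcript of the Mir17 to Mir92-1 cluster, had 22.5 ± 1.8 RPKM from 15251 reads, and Mir22hg had 6.68 ± 1.3 RPKM from 2272 reads (SD, n = 4 each).

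In the comparison of the alleles, 91 of the 310 loci were higher on S129 and 21 were higher on CAST by limma, which was run on the difference in each library (adjusted p under 0.05 over all 13341 genes tested), and 198 passed in neither direction. Of all genes tested, 31.4% were higher on S129, 31.3% on CAST and 62.7% on either allele. The loci were called on S129 in 29.4%, near the background, and on CAST in 6.77%. Their median difference was 0.42, where that over all genes tested was -0.0034. The median gene tested had 3854 reads, and the calls moved with depth. Outside chromosome X and both imprinted clusters described below, 13 and 8 of 125 loci under 40 reads were called on S129 and CAST, 14 and 8 of 94 loci with 40 reads or more but under 400, and 6 and 5 of 17 loci with at least 400 reads. Among the other autosomal genes tested in the middle class of depth, 23.9% of 1350 were higher on S129 and 21.4% on CAST. These loci had 14.9% and 8.51%, with a median standard error of 0.349 where those genes had 0.206. With at least 400 reads, the shares were 29.6% and 34.5% of 11211 genes and 35.3% and 29.4% of the loci. Under 40 reads, they were 6.25% and 18.8% of 16 genes and 10.4% and 6.4% of the loci. The part of depth in the difference between loci and genes was not tested. At 78 loci the call was made in this fit, in a fit to whole reads and in a fit restricted to at least 40 reads alike, 65 of them higher on S129 and 13 on CAST.

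**Figure D2:**
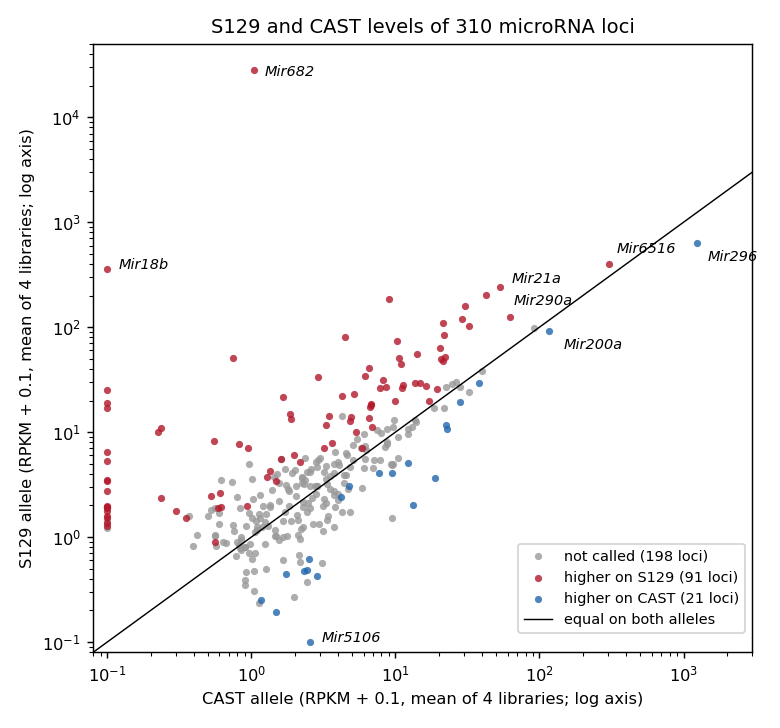
The mean RPKM plus 0.1 of the S129 allele is plotted against that of the CAST allele for the 310 loci, both on log axes, with the line of equal levels; colours give the call by limma. Loci higher on S129 (91) lie above the line, among them Mir682 and, at the left edge with no CAST read, Mir18b, while 21 loci, led in level by Mir296, lie below it.

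Many, but not all, of the loci called higher on S129 came from 3 places. Of the 91, 23 were in the Sfmbt2 cluster, 22 lay between Meg3 and Mirg, 13 were on the X chromosome and 33 were elsewhere. Of the 21 called on CAST, none lay in these 3 places. Outside them, the calls were 33 and 21 of 236 loci, or 13.98% and 8.90%, where of all autosomal genes tested 28.9% were higher on S129, 32.5% on CAST and 61.4% on either. Of the pooled reads of all autosomal loci, 89.7% ± 1.8 were on S129 (SD, n = 4 libraries), but 59.99% without Mir682 and 51.8% without Mir682 and both clusters.

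The Sfmbt2 cluster holds hairpins of the Mir297, Mir466, Mir467 and Mir669 families in an intron of Sfmbt2, a Polycomb-associated gene that is imprinted and, in placenta, paternally expressed. Of 71 loci listed, 41 were at 0 and 27 were members, at chr2:10466663-10518279 (mm10). Of the 27, 23 were higher on S129 and 4 were not called, where 28.9% of all autosomal genes tested were higher on S129. The call of Mir466m was lost under 6 alternatives, with adjusted p of 0.0534 to 0.147 from limma. S129 held 82.9% ± 0.63 of the 19832 reads of the cluster (SD, n = 4), with 83.6%, 83.1%, 82.5% and 82.2% in replicates 1 to 4. In Sfmbt2, at 128 RPKM, S129 held 74.0% of 43078 reads (log2 difference 1.46, standard error 0.034, adjusted p = 1.86e-05 from limma, S129 higher in 4 of 4 libraries). Most reads of Sfmbt2 and of the cluster were thus on the maternal copy, the reverse of the paternal expression known from placenta. Whether imprinting or strain lies behind the difference was not tested. Members ranged from 1.11 to 122 RPKM, and no member was above its host in the mean of both alleles. On S129 alone, Mir669i had a mean of 201 RPKM and Sfmbt2 187.7 RPKM. The order of locus and host also depends on the gene length behind each RPKM and on the SNPs in each. The part of length and SNPs in this order was not tested.

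Mir669i had 235, 176, 208 and 187 RPKM on the S129 allele and 37.9, 37.7, 50.7 and 44.3 RPKM on the CAST allele, with no overlap. Mir669a-1 had 221, 188, 202 and 133 RPKM on S129 and 12.2, 6.70, 8.73 and 8.02 RPKM on CAST. Mir467b had 50.0, 49.1, 51.9 and 51.2 RPKM on S129 and 1.48, 1.11, 0 and 0 RPKM on CAST. These members thus differed in their S129 share, with 83.4% of 2991 reads at Mir669i (exact 95% interval 82.0% to 84.7%), 95.6% at Mir669a-1 (94.6% to 96.5%) and 98.6% at Mir467b (96.8% to 99.5%). Mir466b-3, with 95.7% of 668 reads, was the other member above 90%. Of the 4 members that were not called, Mir467d had 64.6%, Mir669g 53.6%, Mir466p 45.7% and Mir466f-2 40% of the reads on S129, from 28 to 65 reads each. Hairpins of these families are near-identical copies of each other, so that reads can be placed on another copy, and values of single members are uncertain.

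The hairpins between Meg3 and Mirg belong to the Dlk1-Dio3 domain, whose noncoding transcripts Meg3, Rian and Mirg are known to be read from the maternal chromosome. Of 60 loci listed, 25 were at 0 and 31 were members, spread over 167728 bp at chr12:109580233-109747960. Of these, 22 were higher on S129 and 9 were not called, where 28.9% of all autosomal genes tested were higher on S129. With the libraries pooled, all 31 had more than 50% of their reads on S129, from 60% (Mir493) to 93.3% (Mir154). The log2 difference in the limma fit was above 0 at 30 of the 31. Of their 4562 reads, 77.5%, 77.5%, 72.2% and 77.8% were on S129 in replicates 1 to 4, or 76.2% ± 2.7 (SD, n = 4). The transcripts of the domain had 81.1% (Meg3), 82.5% (Rian) and 77.7% (Mirg) of their reads on S129. As S129 is the maternal copy throughout, parent and strain cannot be told apart here.

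Mir1193 had the highest level here, with 34.4 ± 3.8 RPKM (SD, n = 4). It had 45.7, 44.4, 47.1 and 53.2 RPKM on S129 and 13.1, 24.2, 24.1 and 23.7 RPKM on CAST, without overlap (log2 difference 1.199, standard error 0.17, adjusted p = 0.00454 from limma, S129 higher in 4 of 4 libraries). Mir654, with 20.2 RPKM and 85.4% on S129, and Mir300, with 11.5 RPKM and 93.3%, had higher shares than Mir453, with 21.3 RPKM and 68.4%. The 9 members not called had 11 to 142 reads. They were Mir496a, Mir3072, Mir3070a, Mir370, Mir376a, Mir369, Mir493, Mir382 and Mir1197. Of the 22 called members, Mir300, Mir3070b, Mir341, Mir409, Mir453, Mir543, Mir665, Mir666 and Mir882 lost the call without at least 1 library. Of the members not called, Mir370, Mir496a, Mir3070a and Mir3072 gained a call under at least 1 alternative, with adjusted p of 0.0140 to 0.0463 from limma.

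**Figure D3:**
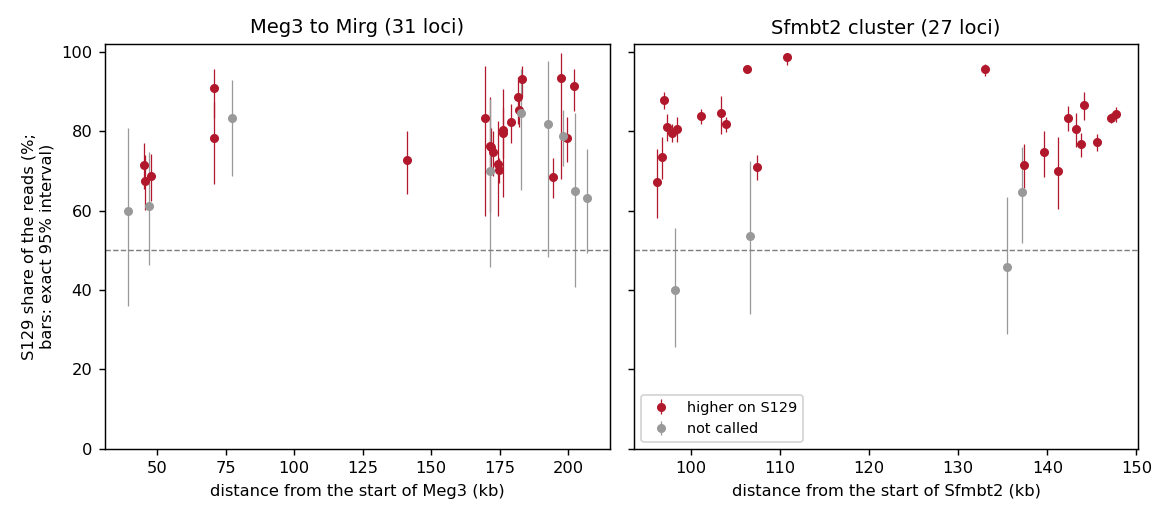
The S129 share of the reads of each member, with its exact 95% interval (counting error only), is plotted against the distance in kb from the start of Meg3 (31 loci) and of Sfmbt2 (27 loci). Members called higher on S129 lie from 67.2% to 98.6% in the Sfmbt2 cluster and from 67.4% to 93.3% between Meg3 and Mirg.

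On the X chromosome, of which these male cells carry the S129 copy, 13 of 16 loci were called higher on S129, as were 99.4% of the 467 genes tested on this chromosome. In 15 of the 16 loci no read was assigned to CAST. Mir18b had 2881 reads on S129 and 0 on CAST, which allows a CAST share of up to 0.104%. Mir20b had 0 of 130 and Mir19b-2 0 of 153, which allow up to 2.31% and 1.96%. The exception was Mir3473a in an intron of Syap1, with 14, 10, 3 and 0 reads on S129 and 6, 5, 3 and 2 reads on CAST, whereas 99.9% of the reads of Syap1 were on S129. Mir7092 and Mir6384, with 9 and 7 reads, were the other members not called. As a fold against 0 depends on the pseudocount, no fold is given for these loci.

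Mir18b, Mir20b and Mir19b-2 are the members of the cluster from Mir106a to Mir363, and they lie within 431 bp of each other at chrX:52741983-52742413. Mir106a, Mir92-2 and Mir363 were at 0. Mir20b had 7.60, 8.03, 9.67 and 8.62 RPKM and Mir19b-2 had 9.93, 7.88, 10.2 and 9.92 RPKM, so Mir18b stood 21.2 times above Mir20b, on the scale of RPKM as deposited. Such steps between neighbours also stood elsewhere. Mir25 had 94.7 ± 5.5 RPKM and Mir93 had 4.04 ± 0.98 RPKM (SD, n = 4 each), within 290 bp in Mcm7, a gene of DNA replication, and Mir106b of the same cluster was at 0. The SNPs in these hairpins were not examined.

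In the Mir17 to Mir92-1 cluster at chr14:115043671-115044263, 3 of 6 hairpins were members and Mir18, Mir19b-1 and Mir92-1 were at 0. Mir19a had 63.2, 41.8, 55.1 and 45.5 RPKM on S129 and 19.3, 27.7, 16.5 and 24.8 RPKM on CAST, without overlap (log2 difference 1.23, standard error 0.24, adjusted p = 0.0119 from limma, S129 higher in 4 of 4 libraries). Mir17 had 32.7, 25.04, 30.5 and 20.5 RPKM on S129 and 23.1, 11.6, 24.2 and 6.41 RPKM on CAST. It was called with a difference of 0.90 (standard error 0.25, adjusted p = 0.0339 from limma, S129 higher in 4 of 4 libraries), and this call was lost in 5 of the alternatives, with adjusted p up to 0.113. Mir20a, in the same transcript, had 49.4% of 259 reads on S129 and was not called (difference -0.12, standard error 0.17). The host transcript Mir17hg had 57.9% on S129, with 57.4%, 57.0%, 57.2% and 61.2% in replicates 1 to 4.

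Mir290a was the only member of the Mir290 to Mir295 cluster, which is the most abundant microRNA cluster of ESCs, and the 8 other listed hairpins were at 0. It lies at chr7:3218626-3218708 (ENSMUSG00000077815) in no other gene. Its level was 103.5, 88.4, 96.8 and 82.9 RPKM, with 134, 122.5, 133 and 106 RPKM on S129 and 73.1, 54.3, 60.2 and 59.8 RPKM on CAST. The alleles did not overlap (log2 difference 1.00, standard error 0.080, adjusted p = 0.000664 from limma, S129 higher in 4 of 4 libraries). Of the Mir302 to Mir367 cluster, known from primed pluripotency, Mir302c had 7.05 ± 2.7 RPKM and Mir302b 4.29 ± 1.5 RPKM (SD, n = 4 each), and Mir302a, Mir302d and Mir367 were at 0. S129 held 31.8% of 88 reads at Mir302c (exact 95% interval 22.3% to 42.6%) and 30% of 60 at Mir302b (18.8% to 43.2%). Neither was called (log2 differences -1.33 and -1.72, adjusted p = 0.0968 and 0.343 from limma, S129 higher in 1 and 2 of 4 libraries). These values moved with single libraries: Mir302c was called without replicate 4 (-1.95, adjusted p = 0.0102 from limma), and Mir302b was at -0.19 without replicate 3. Of the reads of both, 17.8%, 37.2%, 7.14% and 62.5% were on S129 in replicates 1 to 4. They lie on chromosome 3, where the median gene had a difference of -0.74, and in Larp7, on the opposite strand, S129 held 37.9% of the reads.

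Of the autosomal loci that share the AAAGUGC seed, Mir17 was called higher on S129, a call lost under some alternatives. Mir20a and Mir93 were not called, with 49.4% and 47.8% of their reads on S129. Mir20b, of the same seed, had reads on S129 alone. Mir19a and Mir19b-2, which share another seed, had 71.3% and 100%. Mir20b and Mir19b-2 lie on the X chromosome, of which these cells carry only the S129 copy. Their shares can therefore not be compared with those of autosomal loci. Of the loci with the AUUGCAC seed, Mir25 had 53.0% and was not called (adjusted p = 0.290 from limma). Mir92b had 31.0% and was called on CAST, and Mir32 had 41.0% and was not called. Mir92b lies on chromosome 3, where the median gene had a difference of -0.74.

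Among the let-7 genes, 8 of 11 were at 0 and Mirlet7a-2 was under the limit. Mirlet7e had 24.6 ± 5.0 RPKM and Mirlet7d 12.0 ± 4.2 RPKM (SD, n = 4 each), with 57.0% and 46.3% of their reads on S129, and neither was called (adjusted p = 0.329 and 0.801 from limma). Mir200a, of a family that keeps the epithelial state, had 103, 103, 99.6 and 60.7 RPKM on S129 and 143, 121, 121 and 79.1 RPKM on CAST. CAST was higher in 4 of 4 libraries (difference -0.34, standard error 0.052, adjusted p = 0.00525 from limma), while the ranges of the alleles overlapped and the call was lost without pairing (adjusted p = 0.246 from limma). Mir200b and Mir200c had 3.67 and 2.63 RPKM, and Mir141 and Mir429 were at 0. Mir335, in an intron of Mest, a paternally expressed gene, had 28.1 ± 6.7 RPKM (SD, n = 4) with 52.8% of 540 reads on S129, where Mest had 43.3%; Mir335 was not called (adjusted p = 0.384 from limma). Mir675, in H19, was at 0.

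**Figure D4:**
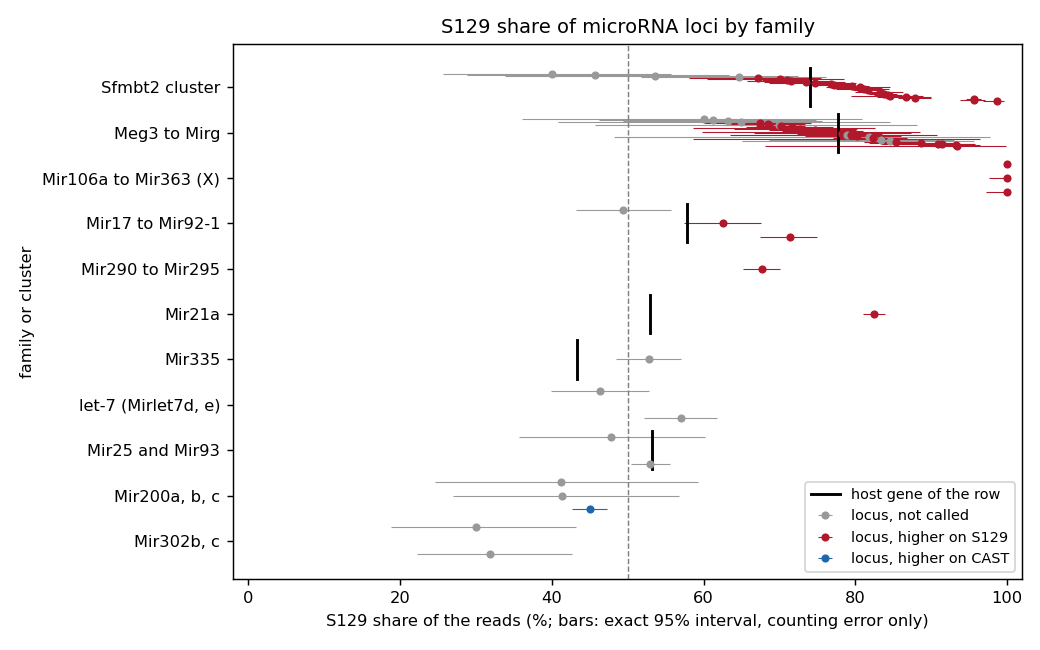
The S129 share of the reads is plotted for each member of the families fixed for this description, with exact 95% intervals (counting error only). The call by limma is in colour and a black bar gives a host gene. In the Meg3 to Mirg row the bar is Mirg, which is the host of only some members. The Sfmbt2 and Meg3 to Mirg members lie mostly above 60% and the X-linked members at 100%, while the let-7, Mir25 and Mir93, Mir200 and Mir302 members lie between 30% and 57.0%, and Mir21a lies at 82.5%, far from Vmp1.

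Among the loci outside chromosome X and both imprinted clusters, the largest differences in favour of S129 after Mir682 were at Mir7053 in Pold1 (5.95, standard error 0.39, adjusted p = 0.000377) and at Mir703, on the opposite strand of Cfap299 (5.91, standard error 0.93, adjusted p = 0.00584), both from limma and with S129 higher in 4 of 4 libraries. Mir7053 had 30, 21, 13 and 9 reads on S129 and 1, 0, 0 and 0 on CAST. Mir703 had 51, 35, 29 and 7 reads on S129 and 0, 0, 0 and 1 on CAST. With so few CAST reads, the size and the ranking of these differences depend on the pseudocount and on depth. The X-linked loci Mir18b, Mir221, Mir19b-2, Mir20b, Mir471 and Mir652 together with Mir682 and Mir467b made up the rest of the 10 largest.

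In favour of CAST, the 10 loci with the largest difference were Mir5106, Mir6933, Mir6897, Mir1936, Mir1960, Mir7220, Mir1932, Mir8090, Mir6417 and Mir6386. Mir5106 had 3, 4, 5 and 4 reads on CAST and 0 in each library on S129, and it was the only locus with reads on CAST alone. Mir6897, in an intron of Uggt1, had 16.8, 13.1, 13.0 and 9.65 RPKM on CAST and 3.92, 1.26, 0.657 and 1.85 RPKM on S129, without overlap (log2 difference -2.95, standard error 0.39, adjusted p = 0.00329 from limma, CAST higher in 4 of 4 libraries). Mir7220 had 124 reads, and the other 7 had 11 to 29 reads each. At Mir6933, Mir1960 and Mir8090 the alleles overlapped. Calls of Mir1936, Mir1960, Mir6417, Mir7220 and Mir8090 were lost without single libraries.

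Of the 310 loci, 169 lay in an intron of a gene on the same strand, 36 in an exon, 20 across the edge of an exon, 21 in a gene on the opposite strand and 64 in no other gene. Of the 64 loci in no other gene, 28 were higher on S129 and 8 on CAST, and of the 169 intronic loci, 45 and 11 were, but these counts hold loci of chromosome X and both imprinted clusters. Without them, the calls were 3 and 8 of 35 loci in no other gene and 13 and 11 of 128 intronic loci, where of all autosomal genes tested 28.9% and 32.5% were called. For 166 intronic loci with a value for the host, the RPKM of the locus was 0.204 of that of the host at the median (quartiles 0.0744 and 0.507). It was above the host at 21, and more than 10 times above at 6. These 6 were Mir200a and Mir200b in Ttll10, Mir7666 in Fgf20, Mir8116 in Ache, Mir135b in Lemd1 and Mir7220 in Camk2a, hosts that were themselves under 1 RPKM. Mir7079, in an exon of the ribosomal protein gene Rpl13, had 33.5 RPKM against 3071 RPKM of its host. These ratios of locus to host also depend on the gene length behind each RPKM and on the SNPs in each, whose part was not tested.

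Beside their hosts, the S129 shares of 112 autosomal loci with at least 40 reads in both had a Pearson correlation of 0.68 and a Spearman correlation of 0.67 across loci. The loci share libraries and, within 76 hosts, also hosts, so they are not independent. Reads of a locus and of its host can be the same reads, so their shares are not separate measurements either. Without the Sfmbt2 and Meg3 to Mirg clusters the correlations were 0.43 and 0.41 over 79 loci. The gap between locus and host was at most 10 percentage points at 66 of the 112 loci and over 25 at 9. The host was tested for 39 called autosomal loci outside both clusters. It was called in the same direction at 24, in the other at 9, and not called at 6. Of all autosomal genes tested, 28.9% were higher on S129, 32.5% on CAST and 61.4% on either. The hosts counted here include genes on the opposite strand.

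Of the 9 loci called against their host, Mir677, Mir3068 and Mir1291 had the most reads, and these loci are named after their values were seen. Mir677, in an intron of Atp5b, a subunit of the ATP synthase, had 47.7, 27.5, 34.5 and 23.6 RPKM on S129 and 4.602, 2.604, 3.26 and 0.767 RPKM on CAST, without overlap, and in Atp5b S129 held 48.3% of the reads. Mir1291, in an intron of Kansl2, had 14.9, 10.3, 20.2 and 9.82 RPKM on S129 and 6.14, 2.78, 6.87 and 3.58 RPKM on CAST, where Kansl2 had 34.3% on S129. Both overlap genes of the small nucleolar RNA class, from whose reads theirs cannot be told apart. Mir3068, itself annotated as a small nucleolar RNA, had 63.1% of 233 reads on S129 and its host Alkbh1 45.2%. Further such loci were Mir6897, Mir1258, Mir6395, Mir7059 and Mir1839, with 10 to 90 reads. Of these, Mir1258 and Mir6395 lie in an intron of their host but on the opposite strand.

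**Figure D5:**
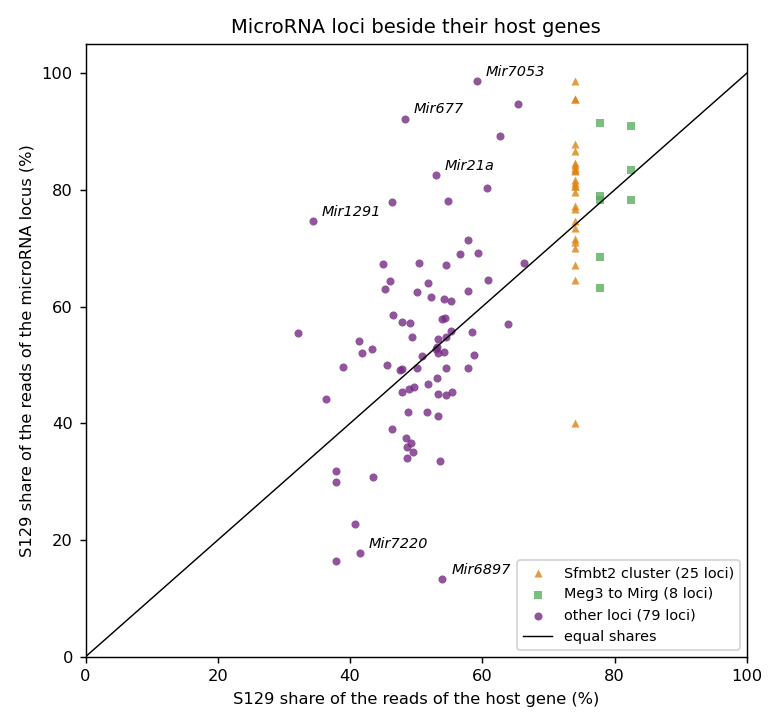
The S129 share of the reads of a locus is plotted against that of its host gene, both in percent, for 112 autosomal loci with at least 40 reads in both; the line marks equal shares. Points scatter around the line, the 25 members of the Sfmbt2 cluster stand in a column at 74.0%, and Mir677, Mir1291, Mir21a and Mir7053 lie far above the line and Mir6897 far below it.

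Of 25 genes of the microRNA pathway, 23 were in the table and 22 were tested, of which 7 (31.8%) were higher on S129, 6 (27.3%) on CAST and 9 passed in neither direction, near the 31.4% and 31.3% of all genes tested; Tut4 and Tut7 were matched neither under these names nor as Zcchc11 and Zcchc6, and Ago4, at 0.149 RPKM, was not tested. In the nucleus, Drosha had 30.2 ± 3.5 RPKM and its partner Dgcr8 9.81 ± 1.1 RPKM (SD, n = 4 each). Dgcr8 had 65.5% of its reads on S129 (log2 difference 0.86, standard error 0.039, adjusted p = 0.000126 from limma, S129 higher in 4 of 4 libraries), the largest difference of the list, and lies on chromosome 16, where the median gene had 0.69. The difference was 0.38 at Drosha (standard error 0.033, adjusted p = 0.000923 from limma, S129 higher in 4 of 4 libraries). The exporter Xpo5 had 18.7 RPKM, and Dicer1 had 7.18 RPKM with 55.1% on S129. Among the Argonautes, Ago3 had 18.99 RPKM from 2429 reads, Ago1 7.99 RPKM from 10829 and Ago2 4.01 RPKM from 10321, and none was called. The order in RPKM is thus not the order in reads, as RPKM also depends on the gene length behind it. Lin28a, which blocks the processing of let-7, had 49.5 RPKM, Lin28b 8.98 RPKM and Trim71, a target of let-7, 27.7 RPKM. The calls of this list depended on the fit, with 3 higher on S129 and 2 on CAST when the alleles were not paired.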

How the data were processed

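RNAseq of 4 libraries of untreated F123-ESCs was analysed. The authors removed ribosomal reads, trimmed reads with Trimmomatic (version 0.40), aligned them with STAR to the SNP-masked mm10 genome, divided them between S129 and CAST by SNPsplit, and deposited RPKM per gene and allele, the averages of the libraries, and log10 of these averages plus 1, of which the averages and log10 values were not used. The counting program, gene annotation and use of strand are not given in the sources used here.

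Members, families and gene lists were chosen with earlier results of these data known. Genes were matched to GENCODE M21 (mm10). Reads behind the RPKM were recovered from their steps: 20133 of 20243 genes above 0 (99.5%) came out whole within 0.02 reads. Totals were 16716721 to 28772351 reads per allele and library. Intervals are exact (Clopper-Pearson, 95%). They and the limits for a count of 0 (3 counts) hold counting error alone: PCR copies were not told apart.

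Levels are means of both alleles, and those of different genes also depend on the gene length behind each RPKM. Alleles were compared by limma (3.58.1 in R 4.3.3) on log2(RPKM+0.1) differences within libraries, for the 13341 genes whose allele means summed to 1 RPKM or more, and p-values were adjusted over all of them after Benjamini-Hochberg (threshold 0.05, two-sided). This scale understates differences of low values, and differences of genes at 0 depend on the 0.1 added. Alleles are paired because each library gave both values. Deviations from the allele means correlated at 0.105 to 0.195 within libraries and at -0.155 to 0.140 between them. The reads and limma steps were tested on simulated data. For limma, the alleles were drawn independently and no read was misplaced, so pairing and reads placed on another copy were not covered. Named loci are the 10 with the highest level, the 10 with the most reads, the 10 with the largest called difference in each direction, the fixed families, 3 loci on each side of the limit, the genes that overlap these and the microRNA pathway. Alternatives were another pseudocount, read or level filters, whole reads, the chromosome median subtracted, a variance trend, no pairing, and each library left out. The host gene of 1 locus is not reported here.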

Additional observations from a re-analysis of the deposited data

Results flagged for a closer look

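By Dixon's criterion, 7 of 71 quantities had 1 of the 4 libraries far from the rest, where chance gives about 1 in 20, or 3.55 of 71. Replicate 3 held 3.24 RPKM of Mir1960, against 0.521 to 0.767 RPKM elsewhere. Mir19b-2 was lowest in replicate 2 with 7.88 RPKM, and lay at 9.92 to 10.2 RPKM elsewhere. Mir471 reached 5.57 RPKM in replicate 4, against 2.13 to 2.62 RPKM elsewhere. Between Meg3 and Mirg, S129 held 72.2% of the reads in replicate 3 and 77.5% to 77.8% elsewhere. At Mir25 and Mir93 together, S129 held 58.5% in replicate 3 and 50.6% to 51.2% elsewhere. In the microRNA pathway, Ran had 27.6 RPKM in replicate 4 (34.5 to 35.8 RPKM in the others) and Ago1 had 7.18 RPKM in replicate 1 (8.17 to 8.36 RPKM in the others).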

How the results depend on the processing

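The alternatives without Mir682, the imprinted clusters or chromosome X were chosen after the data were seen. Of 92 summary values computed under alternatives, 79 moved by less than 1 SD between libraries or, for counts, by at most 1.5 times (76 of 86 chosen earlier and 3 of 6 added). Listing every locus gave a median level of 0 RPKM. The S129 share of autosomal loci, 89.7%, was 58.8% as the median locus of each library, averaged, 91.7% for hairpin genes alone, 59.99% without Mir682 and 51.8% without Mir682 and both imprinted clusters. The 91 loci higher on S129 became 33 without chromosome X and both clusters, and the 21 higher on CAST became 13 with at least 40 reads, where fewer loci were tested. Leaving out each library gave 80 to 84 loci higher on S129, 22 to 26 higher on CAST, 309 to 315 members, medians of 2.95 to 3.08 RPKM and shares of 88.8% to 90.1%. Without the replicate block, so that the alleles were not paired by library, 92 and 20 loci were called. Of the pathway genes, 3 and 2 were called without this pairing in place of 7 and 6, and 2 to 5 and 2 to 7 with each library left out; the cause was not tested.

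Of 96 named loci, 72 were called. A value under all 11 alternatives was had for 59 of these, of which 45 kept the call in all, and 7 of the other 13 kept it where they had a value. The alternatives also gave a call to 8 loci that lacked one, in 14 values, among them Mir22hg and Mirlet7d without replicate 4 and Mir466f-2, then higher on CAST, without replicate 2. Among the named loci, directions reversed where the locus was called in neither fit, and at Mir471 and Mir652 on X, where the chromosome median of 6.34 was subtracted. These were then at -0.44 and -0.92, but both have 0 CAST reads, so their values depend on the pseudocount and depth and the sign says nothing of the alleles. With a pseudocount of 1, Mir369 was at 0.084. With single libraries left out, Mir369 ranged from -2.13 to 0.80, Mir20a from -0.28 to 0.027, Mir466p from -0.81 to 0.32, Mir493 from -0.42 to 1.14, Mir669g from -0.55 to 0.95, Mir93 from -0.47 to 0.15 and Mirlet7d from -0.35 to 0.070. Depth limits the loci, of which 146 of 310 had under 40 reads, and 33 of the called loci are among these.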
